A study of Mus musculus with 14 samples.

Results

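Genes for the protein subunits of oxidative phosphorylation were followed in 14 bulk RNA sequencing libraries of mouse hair follicle stem cells, with the subunits encoded in mitochondrial DNA set against those encoded in the nucleus. Members were chosen by symbol from the protein-coding genes of GENCODE mouse release M21: symbols that start with mt-, and symbols of the Nduf, Uqcr, Cox and Atp5 series. This gave 94 genes, 13 mitochondrial and 81 nuclear, of 36047 genes with a transcript in the deposited tables. Of these, 91 passed the filter on low counts: all 13 mitochondrial genes and 78 nuclear ones. Of the nuclear genes tested, 37 belong to complex I, 8 to complex III, 15 to complex IV and 18 to complex V by their symbols.

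Oxidative phosphorylation is carried out by large enzyme complexes of the inner mitochondrial membrane, most of which mix proteins made inside the organelle with proteins made in the cytosol and imported. Mitochondrial DNA is transcribed from both strands into long precursor RNAs that are cut into single messages, so its genes are not switched on one by one, whereas each nuclear gene has a promoter of its own. Bulge stem cells are known to rest between hair growth phases and to divide when a phase starts, and their energy metabolism has been studied as a feature of that switch.

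Cells were sorted from trypsin-digested back skin as CD34-positive and Ly-6A/E-negative cells that also carried a marker the labels write as CD45f. They came from mice labelled Irx5KO, a knockout of the homeobox transcription factor gene Irx5, or WT, at postnatal day 18 (P18) or postnatal day 20 (P20). There were 3 libraries for each genotype at P18 and 4 for each at P20. The labels give neither the knockout allele nor the sex, nor whether replicate libraries are different mice. A p-value here therefore covers only the spread among the libraries at hand, which could be technical.

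Total estimated counts ranged from 13618367 to 70083873 per library. All 12 markers of hair follicle stem cells on the list used were above 1 CPM (counts scaled to a common library size) in the median library, Cd34 at 242 to 919 CPM and Krt15 at 4830 to 17218 CPM. Each age had libraries under 2 codes in the deposited names. The codes were read as dates, although the labels do not say what they mark, and those of both P20 sets lie in time between those of the P18 sets. Age and date cannot be told apart by a covariate, and values are therefore given by date where they matter. At P18 the earlier code held Irx5KO 1, WT 1 and WT 2. At P20 the later code held the libraries numbered 1 and 2, and the earlier code those numbered 3 and 4. Irx5 itself went against the labels in the P20 libraries of the earlier code, with 181 and 170 CPM in those labelled Irx5KO 3 and 4 and 33.2 and 37.5 CPM in WT 3 and 4, so genotypes are given throughout as labelled. One P18 library labelled WT, number 3, is also marked het in the deposited data. Receptor genes of smell and pheromone sensing, which these cells are not known to use, took 1.80%, 5.45% and 2.41% of counts in P18 WT 1, P18 WT 2 and P20 WT 2, and 0.102% to 0.611% in the rest. The Y-linked gene Ddx3y was below 1 CPM on the earlier P18 date and in P20 Irx5KO 1 and WT 1, so sex and date cannot be told apart at P18.

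A stretch of chromosome 1 carries annotated near-identical copies of 7 of the 13 mitochondrial genes, and this decides how their counts read. The stretch (chr1:24611535-24616197, GRCm38, minus strand, 4663 bases) is annotated as a row of unprocessed pseudogenes and runs from part of mt-Co1 to part of mt-Nd4. The copies of mt-Co2, mt-Atp6, mt-Co3, mt-Nd4l and the copied part of mt-Nd4 matched their mitochondrial genes at every aligned base. For mt-Nd3, a complex I subunit gene at chrM:9459-9806, the copy Gm28438 (chr1:24612775-24613119) differed at 1 base, the substitution T3C counted from the first base of the gene. That base is in capitals in the opening stretches of both.

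mt-Nd3: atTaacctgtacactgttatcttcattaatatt

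Gm28438: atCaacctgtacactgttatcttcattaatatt

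For mt-Co2, a catalytic core subunit gene of complex IV at chrM:7013-7696, the copy Gm28661 (chr1:24614885-24615565) was identical over its whole annotated length. The annotated copy ends before the last 3 bases, which are in capitals, so almost no read can separate the pair.

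mt-Co2: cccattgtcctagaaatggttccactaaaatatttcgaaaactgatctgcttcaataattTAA

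Gm28661: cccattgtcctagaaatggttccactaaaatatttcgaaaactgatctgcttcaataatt

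The genes of the mitochondrial subunits of complex V, mt-Atp8 and mt-Atp6, lie on one message and share 43 bases, printed in capitals at the end of mt-Atp8 (chrM:7766-7969). Of the pair, mt-Atp6 has an identical annotated copy, Gm10925, in the chromosome 1 stretch. No near-identical annotated copy was found for mt-Atp8. Only annotated genes were compared, so the stretch may still hold its sequence.

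mt-Atp8: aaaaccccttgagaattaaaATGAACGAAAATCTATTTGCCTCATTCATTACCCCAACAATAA

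Messages of the mitochondrial genome made up a smaller part of the library at P20 than at P18, and this held in every library. Of all counts, the 13 genes made up 1.77%, 1.66% and 1.48% in P18 libraries labelled Irx5KO, and 1.97%, 1.65% and 1.78% in those labelled WT. At P20 they took 0.456%, 0.566%, 0.797% and 0.594% in libraries labelled Irx5KO and 0.450%, 0.542%, 0.519% and 0.515% in those labelled WT. The lowest P18 library thus lay above the highest P20 library, and the mean share was 3.10-fold higher at P18 (1.72% ± 0.163, SD, n = 6) than at P20 (0.555% ± 0.109, SD, n = 8). With the chromosome 1 copies counted in, the shares were 1.90% to 2.72% at P18 and 0.625% to 0.964% at P20, again 3.10-fold apart. Both P18 dates lay above both P20 dates, with 1.65% to 1.97% on the earlier and 1.48% to 1.78% on the later P18 date. Among the libraries low in Ddx3y, the 3 at P18 had 1.65% to 1.97%, and the pair at P20 had 0.456% and 0.450%. A share of the library does not tell fewer mitochondrial messages per cell from more of other RNA, nor a change in all cells from a change in the mix of cells.

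**Figure D1:**
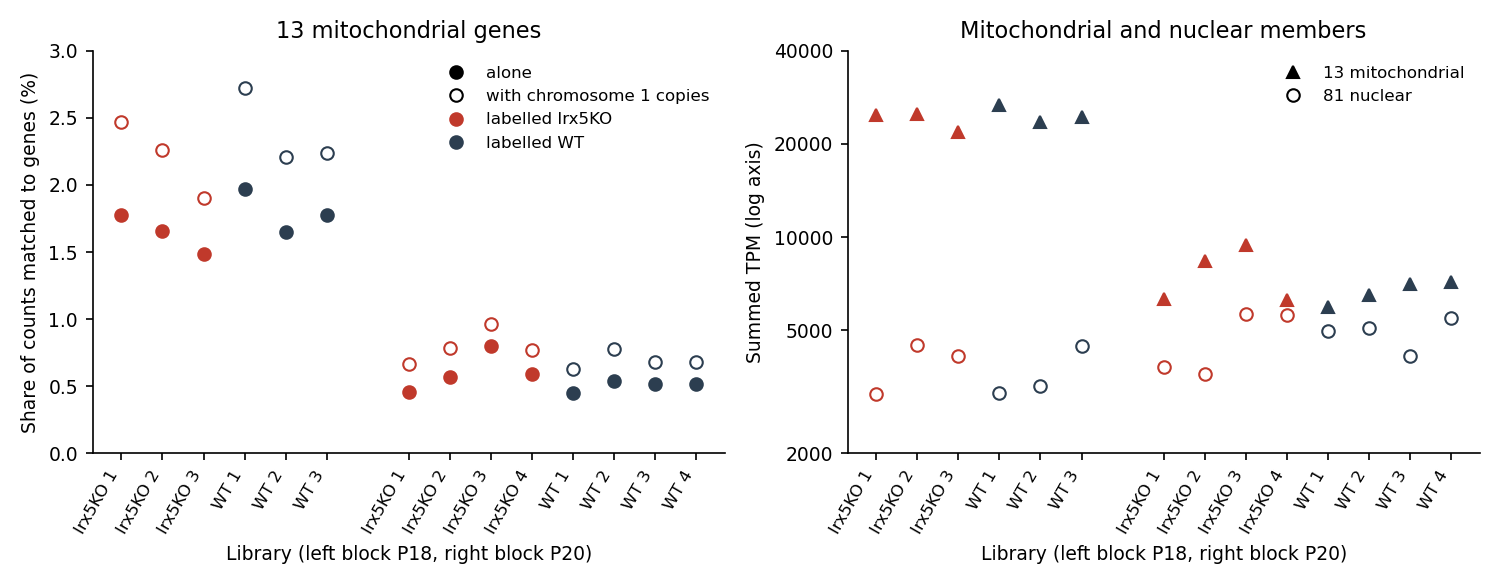
Left, share of counts taken by the 13 mitochondrial genes in each library, alone (filled) and with their chromosome 1 copies (open). Right, summed TPM of the 13 mitochondrial genes (triangles) and of the 81 nuclear genes (open circles) on a log axis, with libraries labelled Irx5KO in red and WT in dark blue. Mitochondrial sums fall from 21898 to 26812 TPM at P18 to 5920 to 9443 TPM at P20, while the nuclear sums of the ages overlap.

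Subunit genes of the nucleus did not follow. On the length-corrected scale (TPM, in which each library has the same total over transcripts), the 81 nuclear genes summed to 3109, 4489 and 4136 in the P18 libraries labelled Irx5KO and to 3127, 3302 and 4439 in those labelled WT. At P20 the sums were 3813, 3603, 5660 and 5587 for Irx5KO and 4966, 5080, 4125 and 5478 for WT. The ages overlapped, and the P20 mean was 1.27-fold the P18 mean. By date, the sums were 3109 to 3302 on the earlier and 4136 to 4489 on the later P18 date, which did not overlap, and 3603 to 5080 on the later and 4125 to 5660 on the earlier P20 date. The later P18 date thus lay within the P20 range. The 13 mitochondrial genes summed to 24406 ± 1639 TPM (SD, n = 6) at P18 and 7120 ± 1206 TPM (SD, n = 8) at P20. The ratio of the mitochondrial to the nuclear sum was 5.29 to 8.57 at P18 and 1.12 to 2.32 at P20, with no overlap. On the log2 scale the mean ratio was 2.71 ± 0.302 (SD, n = 6) at P18 and 0.58 ± 0.350 (SD, n = 8) at P20, a difference of -2.14.

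Each complex showed the same split. In complex I, the summed TPM of the 7 mitochondrial genes was 8106 to 11228 at P18 and 2396 to 3484 at P20, and that of its nuclear genes was 1111 to 1595 and 1190 to 2012. For complex III, mt-Cytb, which encodes cytochrome b, had 2362 to 3269 TPM at P18 and 673 to 1085 at P20, beside 346 to 555 and 408 to 649 for the nuclear subunits. The 3 mitochondrial genes of complex IV summed to 5590 to 6376 TPM and then 1383 to 2156 TPM, and the nuclear ones to 591 to 911 and 687 to 1157. For complex V the mitochondrial pair gave 5121 to 6600 TPM at P18 and 948 to 2721 at P20, and the nuclear genes 945 to 1464 and 1232 to 2090. In all 4 complexes the mitochondrial sums of the ages did not overlap and the nuclear sums did.

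Tested gene by gene, 10 of 13 mitochondrial genes were lower at P20 and none was higher (edgeR's quasi-likelihood test with Benjamini-Hochberg adjustment over all 24592 genes tested, adjusted p under 0.05). Among all genes tested, 2.38% were called lower. The median log2 difference, P20 minus P18, was -1.65 over the mitochondrial genes. It was -0.34 over all genes tested and 0.01 over the 10536 genes with a mean of at least 8 CPM. Of the 10, 9 passed in each of the 30 alternatives tried, and mt-Co3 did not pass in 14 of them. In those 9 genes no P20 library reached the lowest P18 library, which held for 1.83% of all genes tested.

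Complex I is the entry point for electrons from NADH, and 6 of its 7 mitochondrial genes fell. The gene mt-Nd6 is the only mitochondrial member read from the other strand of the mitochondrial genome (chrM:13552-14070, minus strand). It was at 609, 549 and 516 CPM in the P18 libraries labelled Irx5KO and 596, 487 and 555 CPM in those labelled WT. At P20 it was at 175, 168, 148 and 138 CPM in Irx5KO and 151, 158, 110.5 and 103 CPM in WT. It fell by 1.94 ± 0.155 on the log2 scale (SE; edgeR adjusted p = 1.77e-05) and its ages were far apart. The others that passed were mt-Nd5 (log2 difference -1.68), mt-Nd1 (-1.66), mt-Nd4 (-1.62), mt-Nd2 (-1.60) and mt-Nd4l (-1.34), with no overlap between the ages in any of them. The message of mt-Nd4l, which overlaps mt-Nd4 by 7 bases, fell least of the 6.

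Cytochrome b, the only mitochondrial subunit of complex III, fell by a similar size. Its gene mt-Cytb was at 3062, 2368 and 2162 CPM in P18 Irx5KO libraries and 2810.0, 2576 and 2291 CPM in P18 WT libraries. The P20 values were 725, 775, 1068 and 890.4 CPM for Irx5KO and 725, 791, 674 and 684 CPM for WT. The log2 difference was -1.69 ± 0.165 (SE; edgeR adjusted p = 5.95e-05), and every P18 library was above every P20 library.

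Complex IV, cytochrome c oxidase, takes its catalytic core from mitochondrial DNA. Its largest subunit gene mt-Co1 had 5797, 4576 and 4495 CPM in P18 Irx5KO and 5301, 4883 and 4833 CPM in P18 WT libraries. At P20 it had 1537, 1832, 2027 and 1653 CPM in Irx5KO and 1236, 1414, 1647 and 1737 CPM in WT, again without overlap (log2 difference -1.61 ± 0.168 SE; edgeR adjusted p = 8.88e-05). For mt-Co3 the log2 difference was -1.65 ± 0.421 (SE; edgeR adjusted p = 0.0406), with overlapping libraries, and it did not pass without any one of 8 libraries, among them each of the 3 P18 WT libraries. As deposited, mt-Co2 did not pass (log2 difference -1.18 ± 0.502 SE; edgeR adjusted p = 0.227).

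Complex V is the ATP synthase, and its mitochondrial pair diverged in the deposited counts. The short gene mt-Atp8 was at 532, 444 and 302 CPM in P18 Irx5KO and 501, 393 and 361 CPM in P18 WT libraries. It was at 103, 136, 128 and 109 CPM in P20 Irx5KO and 106, 119.8, 113 and 113 CPM in P20 WT libraries, a fall of 1.86 ± 0.161 on the log2 scale (SE; edgeR adjusted p = 1.78e-05). Its partner mt-Atp6 ranged from 72.5 to 1110.0 CPM at P18 and from 35.6 to 802 CPM at P20 and did not pass (log2 difference -1.15 ± 0.719 SE; edgeR adjusted p = 0.426).

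**Figure D2:**
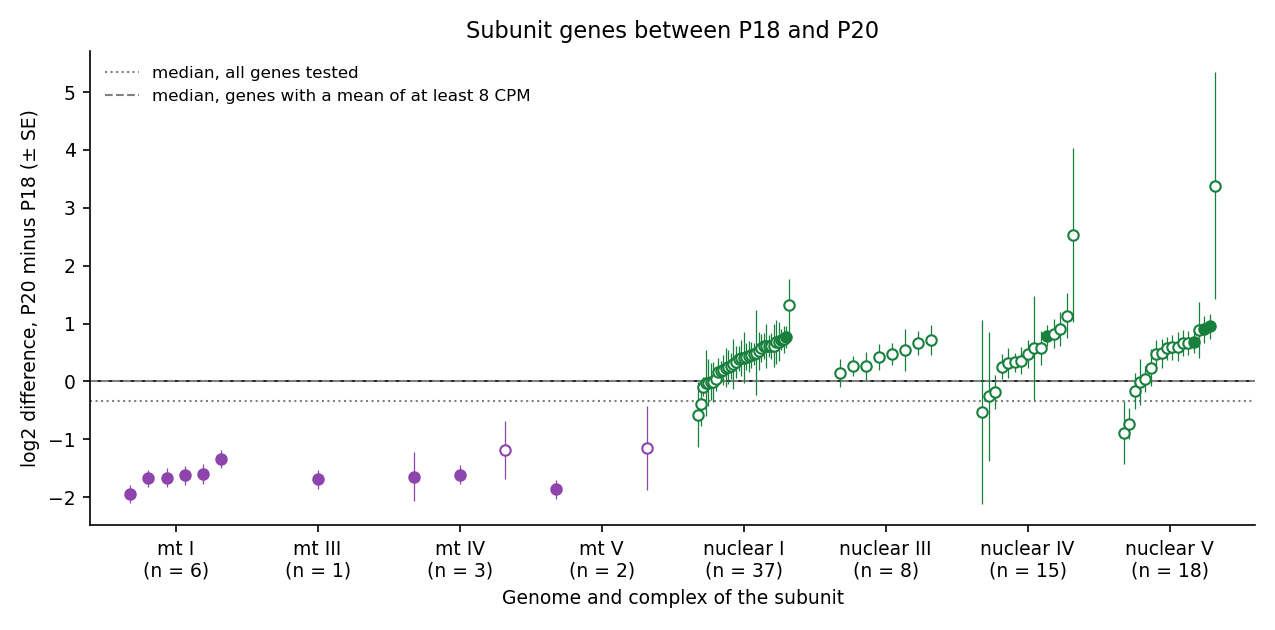
Log2 difference between P20 and P18 for each subunit gene tested, with its SE, by genome and complex. Filled points passed at an adjusted p under 0.05, mt-Nd3 is left out because it was listed at 0 at P20, and the mitochondrial points lie between -1.94 and -1.15 while nuclear medians lie at 0.41 to 0.58.

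The 3 mitochondrial genes that did not pass are among those with a copy on chromosome 1, and the split between gene and copy varied from library to library. For mt-Atp6 the copy Gm10925 held between 47.1% and 97.8% of the joint count. For mt-Co2 the copy Gm28661 held 3.41% to 91.2%, and for mt-Co3 the copy Gm28437 held 0% to 86.1%. The gene mt-Nd3 was listed at 0 in all 8 P20 libraries and in P18 WT 1, while its copy Gm28438 had counts in every library. Quantification of this kind shares reads between matching transcripts by a model, so the split is not a measure of transcription from chromosome 1. Copies elsewhere that match less closely held few counts: over the 14 libraries the highest was 567 for Gm13340, at 97.6% identity to mt-Co1, and the lowest 26 for Gm11408, at 93.6% identity to mt-Nd6.

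Counted together with their copies, these genes behaved like the rest. The joint count of mt-Co2 and its copy was 1552, 1636 and 1197 CPM in P18 Irx5KO and 1820.0, 1327 and 1279 CPM in P18 WT libraries. At P20 it was 398, 441, 576 and 484 CPM in Irx5KO and 361, 385, 487 and 459 CPM in WT, with no overlap between the ages. For mt-Nd3 with its copy the P18 values were 85.0 to 151 CPM and the P20 values 28.3 to 41.9 CPM. For mt-Atp6 with its copy they were 3311, 3255 and 3213 CPM in P18 Irx5KO, 3083, 2832 and 3198 CPM in P18 WT, 1517, 1755, 1515 and 1403 CPM in P20 Irx5KO and 1365, 1542, 1264 and 1031 CPM in P20 WT. The ages were separate for this gene too.

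In a fit of these joint counts, an alternative added after the data were seen, all 13 mitochondrial genes were lower at P20 by edgeR's test, where 2.38% of all genes tested were called lower. Log2 differences ran from -1.96 (mt-Co3, adjusted p = 1.07e-05) to -1.15 (mt-Atp6, SE 0.158, adjusted p = 0.000666). The fall of mt-Co2 became -1.71 ± 0.168 (SE; adjusted p = 4.85e-05 in edgeR) and that of mt-Nd3 -1.75 ± 0.151 (SE; adjusted p = 1.42e-05 in edgeR). The median over the 13 genes was -1.69. Of the 13, mt-Atp6 fell least and mt-Nd4l next (-1.29), against -1.86 for mt-Atp8, which shares a message with mt-Atp6. That difference between the pair was not tested.

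**Figure D3:**
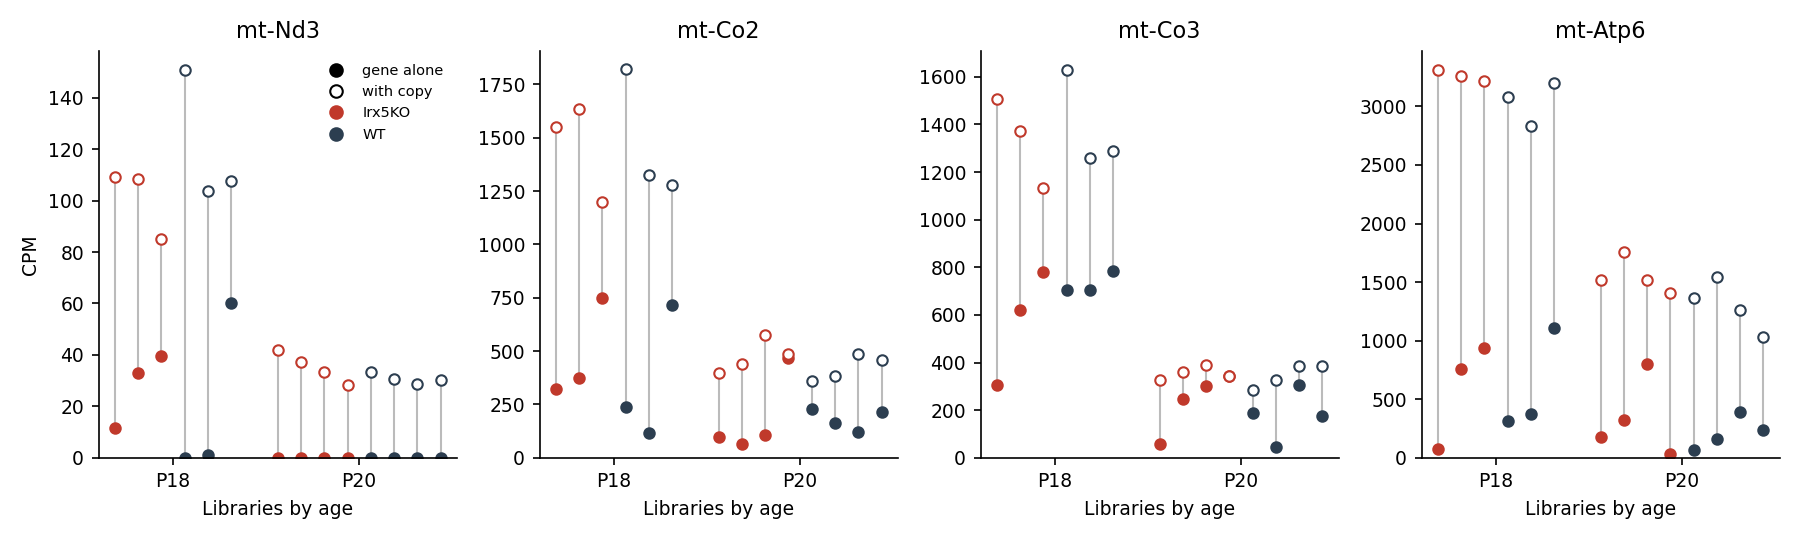
CPM of 4 mitochondrial genes in each library, P18 on the left and P20 on the right of each panel, as deposited (filled) and with the chromosome 1 copy added (open), joined by a line. With the copy added, P18 and P20 libraries separate in all 4 panels, for example 1197 to 1820.0 against 361 to 576 CPM for mt-Co2.

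The fall was present in both labelled genotypes. In the libraries labelled Irx5KO, 9 mitochondrial genes were lower at P20 by edgeR's test (0.96% of all genes tested were called lower), with a median log2 difference of -1.49. In those labelled WT the same test called 9 (0.126% of all genes), with a median of -1.83, and it called 4 without P20 WT 4, 2 without the 3 libraries rich in receptor transcripts and 3 without the earlier P18 date. With TMM scaling over all genes kept it called none of the 24592 genes in WT, and 7 mitochondrial genes in Irx5KO. The genes were the same 9 in both: mt-Nd1, mt-Nd2, mt-Nd4, mt-Nd4l, mt-Nd5, mt-Nd6, mt-Cytb, mt-Co1 and mt-Atp8. With the copies added, all 13 were lower in either genotype, against 0.988% of all genes called lower for Irx5KO and 0.138% for WT. As deposited, the largest of the 9 falls in WT was that of mt-Nd6, at -2.06 ± 0.219 (SE; edgeR adjusted p = 0.0014), and in Irx5KO that of mt-Atp8, at -1.84 ± 0.227 (SE; edgeR adjusted p = 0.00118). No gene passed in the test of whether the age difference depends on genotype (0% of all genes called by edgeR). At an unadjusted p under 0.05 there were 0 mitochondrial genes and 1 nuclear member in that test, and DESeq2 and voom called 0 members. In this sense the genotypes did not differ detectably in their age change, which does not show that they were alike.

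Among nuclear subunits, 6 of 78 were higher at P20 and none was lower, against 2.64% of all genes called higher by edgeR's test. All 6 were among the 64 members with a mean of at least 8 CPM. Of the 10536 genes with such a mean, 639 were called higher. In all, 64 of 78, the 6 included, had a positive log2 difference, or 82.1%, against 36.4% of all genes tested and 50.9% of genes with a mean of at least 8 CPM. The median was 0.46 over the 78 and also 0.46 over the 64 of them with a mean of at least 8 CPM. By complex the medians were 0.41 for complex I, 0.45 for III, 0.47 for IV and 0.58 for V. DESeq2 called 14 of the nuclear genes, all higher, and voom with sample quality weights 28, of which 25 were higher and 3 lower, while of all 24592 genes DESeq2 called 2676 and voom 8681. With the replicate number as a block, 3 nuclear genes were higher and the nuclear median was 0.32. The 6 calls rested on single libraries: none was left without P18 Irx5KO 1, P18 Irx5KO 2 or P18 WT 1, and 1 was left without P18 Irx5KO 3 or P18 WT 2. Without the 3 libraries rich in receptor transcripts no nuclear gene was called, while 10 mitochondrial genes were lower at P20. None was left without either P18 date, where the nuclear median was 0.23 without the earlier and 0.65 without the later one. Leaving out P20 WT 1, Irx5KO 3 or Irx5KO 4 left 4 calls, P20 WT 3 left 3, and P20 WT 4 left 2. Within one labelled genotype, none of the 78 passed edgeR's test: in Irx5KO 10 had an unadjusted p under 0.05, DESeq2 called 1 and voom 0, and edgeR called 0.61% of all genes higher. In WT 17 had an unadjusted p under 0.05, DESeq2 called 1 and voom 43, and edgeR called 0.0691% of all genes higher. Of all 24592 genes, DESeq2 called 1425 in Irx5KO and 564 in WT, and voom 1282 and 14315. The medians were 0.47 and 0.45. By library, no overlap with higher values at P20 was found for 2 nuclear genes, Ndufb10 and Atp5d, and for 1.51% of all genes tested.

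ATP synthase subunits supplied 3 of the 6. The gene Atp5j, which encodes coupling factor 6 of the stalk, was at 38.2, 53.2 and 59.7 CPM in P18 Irx5KO and 38.3, 39.8 and 57.2 CPM in P18 WT libraries. At P20 it was at 79.5, 54.0, 119.7 and 147 CPM in Irx5KO and 86.1, 87.0, 80.0 and 87.5 CPM in WT. It rose by 0.95 ± 0.213 (log2, SE; edgeR adjusted p = 0.0155), and a single P20 library, Irx5KO 2, overlapped the P18 range. The catalytic beta subunit gene Atp5b had 127 to 225 CPM at P18 and 204 to 537 CPM at P20 (log2 difference 0.90 ± 0.232 SE; edgeR adjusted p = 0.033). The delta subunit gene Atp5d of the central stalk had 41.4 to 67.9 CPM at P18 and 69.4 to 146 CPM at P20 (log2 difference 0.68 ± 0.190 SE; edgeR adjusted p = 0.0488).

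Complexes I and IV were also represented among the genes that rose. Ndufb10, an accessory subunit of the membrane arm, had 28.6 to 47.0 CPM and then 47.5 to 77.5 CPM (log2 difference 0.72 ± 0.175 SE; edgeR adjusted p = 0.0239). Cox8a, the widely expressed form of subunit 8, had 18.7 to 35.9 CPM and then 31.8 to 58.8 CPM (log2 difference 0.79 ± 0.182 SE; edgeR adjusted p = 0.0189). The ranges of Cox8a overlapped between the ages, and those of Ndufb10 did not.

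The remaining nuclear members mostly lay between no change and a rise of that size, with wide errors. In complex III none of 8 passed, and log2 differences ran from 0.15 for Uqcr11 to 0.72 ± 0.253 (SE) for Uqcrq, also its most abundant gene (edgeR adjusted p = 0.122). Cox4i1, the subunit 4 gene and the most abundant of complex IV by mean TPM, was at 144 to 222 TPM at P18 and 176 to 269 TPM at P20 (log2 difference 0.33 ± 0.162 SE; edgeR adjusted p = 0.282). Atp5h, the most abundant nuclear member, was at 153 to 343 TPM at P18 and 266 to 445 TPM at P20 (log2 difference 0.66 ± 0.223 SE; edgeR adjusted p = 0.104). Among members with a mean of at least 8 CPM, the highest differences that did not pass were 1.31 ± 0.458 for Ndufs5 and 1.14 ± 0.390 for Cox5a (SE; edgeR adjusted p = 0.118 and 0.11). The lowest were -0.73 ± 0.266 for Atp5l and -0.57 ± 0.555 for Ndufb2 (SE; edgeR adjusted p = 0.134 and 0.592), and in complex IV -0.19 for Cox7c.

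Near-identical pseudogenes limit some of these. At least 95% identity over 200 bases or more to another gene in the tables was found for 25 nuclear members, and for 6 of them the copies held most of the joint counts: 87.4% for Atp5l, with 10 copies, 90.4% for Ndufb4, 75.1% for Atp5g2, 74.8% for Cox6c, 60.2% for Ndufs5 and 96.7% for the second gene named Atp5o. None of the 6 nuclear genes that rose between the ages was among the 25. With the counts of these copies added to the members, an alternative chosen after the data were seen, 6 nuclear genes were again called higher, and the log2 difference of Atp5l went from -0.73 to 0.30.

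Per length, most mitochondrial messages stood above the nuclear ones, by less at P20 than at P18. Apart from mt-Nd3, every mitochondrial gene had a mean over the 14 libraries of at least 534 TPM (mt-Co2), and the highest nuclear mean was 308 TPM (Atp5h). At P18 these 2 genes had means of 823 and 246 TPM. At P20 the mean of Atp5h, 355 TPM, was above those of mt-Nd2 (333 TPM), mt-Co2 (317 TPM) and mt-Co3 (315 TPM). Over the 14 libraries the highest mitochondrial means were 2631 TPM for mt-Atp8 and 2402 TPM for mt-Co1. Nuclear genes next to Atp5h were Atp5b at 225 TPM and Cox4i1 at 193 TPM. The mitochondrial order is that of the deposited split of reads. With the chromosome 1 copy added, the mean of mt-Atp6 went from 412 to 2163 CPM and that of mt-Co2 from 285 to 886 CPM.

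For subunits with tissue forms, the libraries carried the widely expressed form. Cox6a1 was at 30.7 to 101 TPM over the 14 libraries, and the heart and muscle form Cox6a2 at 0 to 0.911 TPM. Cox8a was at 50.1 to 149 TPM and Cox8b, its muscle and brown fat counterpart, at 0 to 1.24 TPM. Cox4i2, induced by low oxygen in lung and elsewhere, was at 0 to 0.936 TPM, and Cox7a1, the muscle form of subunit 7a, at 0 to 10.1 TPM beside Cox7a2 at 22.5 to 72.5 TPM. The testis forms Cox6b2, Cox7b2 and Cox8c reached at most 11.7, 5.83 and 2.78 TPM. Of the 3 genes for the identical c subunit of the ATP synthase ring, Atp5g3 had the highest mean at 49.1 TPM, with 19.9 for Atp5g2 and 16.8 for Atp5g1. This order is that of the deposited split of reads, in which copies held 75.1% of the joint counts of Atp5g2 and 34.3% of those of Atp5g1. Ndufa4 had 7.14 to 29.0 TPM and Ndufa4l2, its low-oxygen counterpart, 0.611 to 21.0 TPM, and neither passed between the ages (log2 differences -0.02 ± 0.405 and -0.03 ± 0.565, SE; edgeR adjusted p = 0.995 and 0.998).

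Some promoters of the nuclear subunit genes held short sequences that are known in this gene class. Nuclear respiratory factor 1, ETS family factors such as GABP, and YY1 are known to bind promoters of respiratory genes. RefSeq promoter windows (GRCm38.p6, 250 bases before to 50 after a start) were matched for 63 of 80 nuclear symbols. The palindromic core of the nuclear respiratory factor 1 site was in a window of 5 of them (7.94%), against 1.07% of all 27025 genes with a window. The ETS core CCGGAAG was in 14 (22.2% against 9.93%) and the YY1 letters AAGATGGCG in 7 (11.1% against 1.64%), both strands searched. The CCAAT box was in 27 (42.9% against 41.1%) and TATAAA in 7 (11.1% against 15.7%). These are matches of letters, not sites shown to be bound, and motifs of different names were allowed to overlap. Median GC content was 57.0% in the windows of the subunit genes and 52.8% over all genes with a window, and no test of the shares was run.

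Windows of the rising genes Atp5j and Cox8a hold such letters, in capitals below. Atp5j (chr16:84834927-84835226, minus strand) has 1 ETS core and 1 YY1 match in 1 of its 2 windows, and Cox8a (chr19:7217567-7217866, minus strand) has 2 ETS cores. The windows of Atp5b, Atp5d and Ndufb10 hold none of the 3.

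Atp5j: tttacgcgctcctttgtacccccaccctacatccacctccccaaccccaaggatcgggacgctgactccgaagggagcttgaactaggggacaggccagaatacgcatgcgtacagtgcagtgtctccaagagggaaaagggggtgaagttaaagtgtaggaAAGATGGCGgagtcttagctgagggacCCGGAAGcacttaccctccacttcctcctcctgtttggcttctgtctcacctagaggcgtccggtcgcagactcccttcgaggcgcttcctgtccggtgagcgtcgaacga

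Cox8a: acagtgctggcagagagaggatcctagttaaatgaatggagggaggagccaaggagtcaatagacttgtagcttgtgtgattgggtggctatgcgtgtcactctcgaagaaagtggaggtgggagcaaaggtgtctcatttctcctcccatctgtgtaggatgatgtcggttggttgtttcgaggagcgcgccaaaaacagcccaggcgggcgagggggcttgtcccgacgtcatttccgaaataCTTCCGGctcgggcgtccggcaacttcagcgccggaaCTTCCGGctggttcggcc

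Regulators and neighbouring pathways were read from lists. Of 12 regulators of mitochondrial biogenesis, 2 rose and none fell by edgeR's test between the ages, against 2.64% of all genes called higher. DESeq2 called 4 of the 12 and voom 6. They were Yy1 (log2 difference 1.18 ± 0.171 SE; adjusted p = 0.00106) and Gabpa, a subunit of GABP (0.59 ± 0.161 SE; adjusted p = 0.0452). Nrf1, nuclear respiratory factor 1, stood at -0.08 ± 0.162 (SE; edgeR adjusted p = 0.811) and Ppargc1a, a coactivator of the programme, at -0.95 ± 0.401 (SE; edgeR adjusted p = 0.203). Of 30 genes tested for transcription, replication and handling of mitochondrial DNA and RNA, 1 rose, the helicase gene Twnk (1.01 ± 0.235 SE; edgeR adjusted p = 0.0196). The mitochondrial RNA polymerase gene Polrmt and the packaging factor gene Tfam had log2 differences of 0.33 ± 0.268 and 0.57 ± 0.318 (SE; edgeR adjusted p = 0.517 and 0.352). The median over these 30 was -0.14.

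A list of assembly factors and of subunits of complex II, the only complex with no mitochondrial gene, also held other genes, Cyc1, Cycs, Ndufab1 and Atpif1 among them. Over its 53 genes the median was 0.09 and none passed by edgeR's test (8 at an unadjusted p under 0.05, 3 in DESeq2 and 6 in voom). In the tricarboxylic acid cycle, which feeds the chain, 1 of 18 genes fell, the pyruvate dehydrogenase gene Pdhb (-0.83 ± 0.200 SE; edgeR adjusted p = 0.0234), none rose, and the median was 0.25. Of all genes tested, 2.38% were called lower by edgeR. DESeq2 called 2 of the 18 and voom 7. In glycolysis 5 of 19 rose and none fell, against 2.64% of all genes called higher by edgeR, with a median of 0.45. DESeq2 called 8 of the 19 and voom 11. The 4 with the smallest p were Pfkl (1.74), Hk2 (1.20), Gapdh (1.07) and Pgk1 (0.95), with edgeR adjusted p of 0.000205, 0.00383, 0.00864 and 0.00984.

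By edgeR's test between the ages, 1 of 4 endothelial and 1 of 4 erythroid markers fell, and 1 of 5 sebaceous markers rose. None passed among stem cell (12 tested), muscle (12), adipocyte (7), suprabasal (8), fibroblast (6), immune (8) and melanocyte (5) markers. Of all genes tested, 2.38% were called lower and 2.64% higher. The endothelial gene Pecam1 fell by 1.67 and the erythroid gene Alas2 by 3.68 on the log2 scale (edgeR adjusted p = 0.0226 and 0.0211). The sebaceous gene Fasn, a fatty acid synthase, rose by 0.93 (edgeR adjusted p = 0.0442). Alas2 does not stand for its list: of the 4 erythroid markers tested, 2 were positive, with a median of 0.20. Median log2 differences were -1.70 over immune, -1.03 over endothelial, -0.91 over muscle, -1.01 over adipocyte and -0.96 over melanocyte markers. They were 0.93 over sebaceous, 0.87 over suprabasal, 0.63 over fibroblast and 0.03 over hair follicle stem cell markers, beside -0.34 over all genes. All 8 suprabasal markers were positive and none passed. Skeletal muscle markers, 9 of 12 of them below 1 CPM in the median library, summed to 8.90 to 113 CPM at P18 and 2.23 to 43.5 CPM at P20. Adipocyte markers, 7 of 8 below 1 CPM, summed to 3.59 to 28.9 CPM and 0.550 to 13.6 CPM, and endothelial markers to 21.4 to 77.0 CPM (mean 44.7) and 3.59 to 29.2 CPM (mean 14.8). The sums of hair follicle stem cell markers were 20509 to 36128 CPM at P18 and 28275 to 47830 CPM at P20. The sums of all 10 marker lists overlapped between the ages, and their part in the mitochondrial and nuclear differences was not tested. Mki67, a marker of dividing cells, was at 14.1 to 36.5 CPM at P18 and 3.75 to 1418 CPM at P20, and the part of cell division in the age difference was not tested.

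Labelled genotype made no difference that passed within P18 or over the whole of P20. Over both genotype comparisons edgeR called 0% of all genes. At P18 the median log2 difference, Irx5KO minus WT, was 0.03 over mitochondrial genes and -0.04 over nuclear ones. At an unadjusted p under 0.05 there were 0 and 1 of them, and DESeq2 and voom called none. At P20 the medians were 0.23 and -0.04, with 0 mitochondrial and 4 nuclear genes at an unadjusted p under 0.05 and none called by DESeq2 or voom.

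Within P20, nuclear subunits ran in opposite directions on the 2 dates, and the mitochondrial ones did not. On the later date the median log2 difference of the nuclear genes, Irx5KO minus WT, was -0.56, with 8 of 78 positive. It was -0.34 over all genes (34.6% positive) and -0.05 over the 10536 genes with a mean of at least 8 CPM (46.3% positive). None of the 78 nuclear genes passed, where 0.516% of all genes were called lower by edgeR's test. At an unadjusted p under 0.05 there were 13 nuclear members, and DESeq2 called 1 and voom 0. On the earlier date the median was 0.47, with 62 of 78 positive, beside 0 and 34.7% positive over all genes. Over the 10536 genes with a mean of at least 8 CPM it was -0.005, with 49.65% positive. In the libraries labelled Irx5KO, 2.2% of all genes were called higher, and 478 of those 10536. Of the nuclear genes 4 passed as higher there, all with such a mean. They were Cox6c (1.14 ± 0.273 SE), Atp5g3 (1.15 ± 0.294), Atp5b (0.92 ± 0.239) and Atp5mpl (1.07 ± 0.280), with edgeR adjusted p of 0.0258 to 0.0400. DESeq2 called 8 nuclear genes there, 6 higher and 2 lower. With the counts of near-identical copies added, Cox6c had 0.51 (edgeR adjusted p = 0.275) and the other 3 passed. Of the 4 calls, none was left without Irx5KO 4, WT 3 or WT 4, without Irx5KO 1 or 2 of the other date, or without the later P18 date. With TMM over all genes kept no member passed on this date, where 1069 of all genes did. Without P18 Irx5KO 2 or 3 there was 1, without P18 Irx5KO 1 or P18 WT 3 there were 2, and without P20 Irx5KO 3 there was 1 beside 1 mitochondrial gene called lower. Mitochondrial medians were 0.08 and 0.40, and none of the 13 passed on either date by edgeR's test (0 and 2 at an unadjusted p under 0.05, 0 and 1 in DESeq2, 0 and 1 in voom).

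The test of the difference between the dates itself, added after the data were seen, called 5 nuclear members and no mitochondrial gene, where 2.68% of all genes were called in that direction by edgeR. All 5 had a mean of at least 8 CPM, and 573 of the 10536 genes with such a mean were called in that direction. The median in this test was 0.96 over nuclear members and 0.03 over those 10536 genes. No call was left without Irx5KO 2 or WT 3 and 1 without WT 4, and without Irx5KO 3 there were 8 nuclear calls beside 2 mitochondrial ones, 1 of them lower. With TMM over all genes kept it called no member, where 1028 of all genes passed. As deposited, the value for Cox6c, a complex IV subunit gene, was the highest of the 5. The gene was at 33.6 and 30.5 CPM in Irx5KO 1 and 2 and 65.5 and 46.9 CPM in WT 1 and 2 on the later date. On the earlier date it was at 71.9 and 80.0 CPM in Irx5KO 3 and 4 and 34.8 and 34.2 CPM in WT 3 and 4. Genotypes as labelled did not overlap on either date and had opposite order, and the difference between the dates was 1.95 ± 0.384 (log2, SE; edgeR adjusted p = 0.00624).

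Cox5b, Atp5mpl, Atp5g3 and Atp5b had the same order. Cox5b, an outer subunit of complex IV, was at 34.1 and 29.3 CPM in Irx5KO and 74.3 and 47.3 CPM in WT on the later date, and at 68.9 and 73.2 CPM against 39.5 and 40.2 CPM on the earlier date (difference 1.77 ± 0.381 log2, SE; edgeR adjusted p = 0.0113). Atp5b was at 268 and 204 CPM against 366 and 313 CPM, and then at 477 and 537 CPM against 251 and 284 CPM (1.45 ± 0.337 log2, SE; edgeR adjusted p = 0.0188). Differences for Atp5mpl and Atp5g3, genes for a small membrane subunit and for the c ring, were 1.75 ± 0.394 and 1.75 ± 0.413 (log2, SE; edgeR adjusted p = 0.0154 and 0.0207). Reads of Cox6c are shared with 3 near-identical copies. With the counts of the copies added, the difference for Cox6c was 0.90 ± 0.325 (log2, SE; edgeR adjusted p = 0.147), and the other 4 genes kept values of 1.45 to 1.77 and passed.

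**Figure D4:**
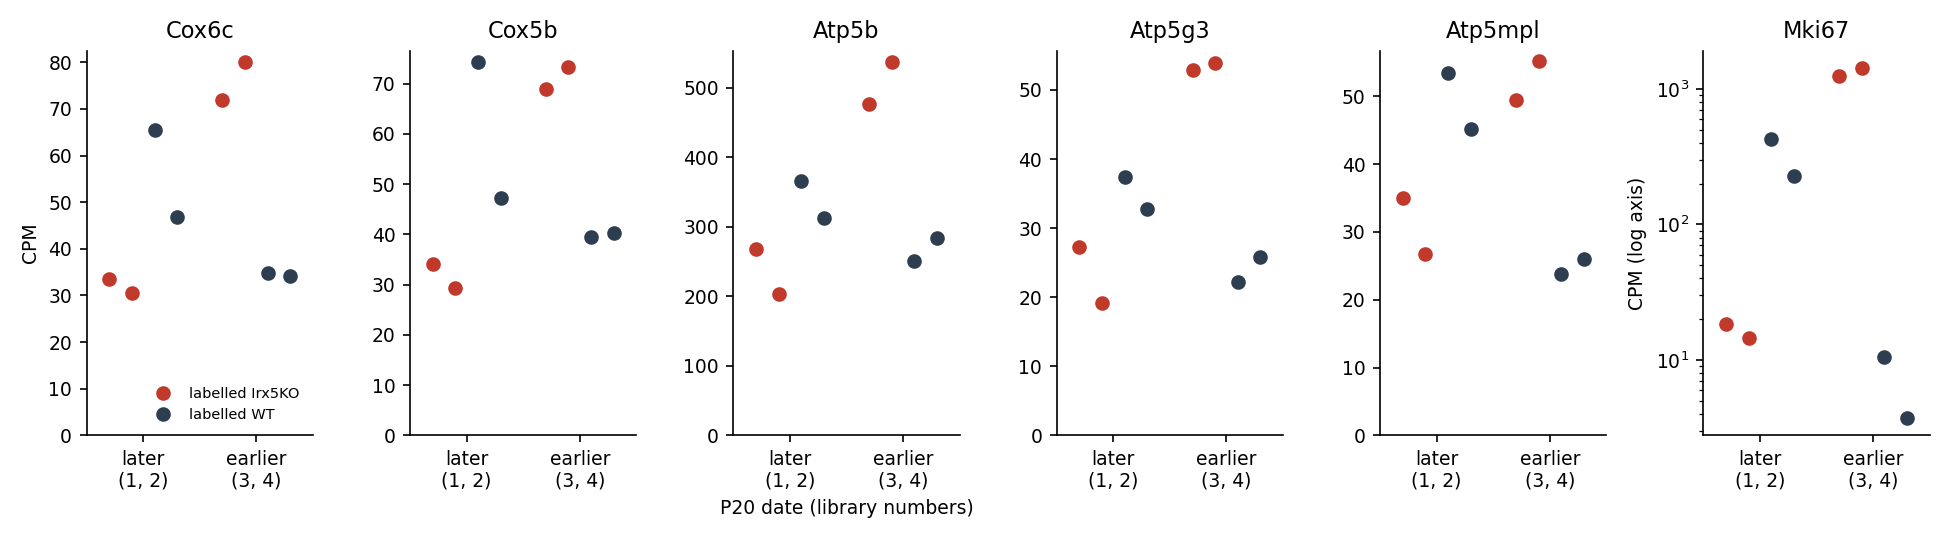
CPM of 5 nuclear subunit genes and, on a log axis, of the division marker Mki67 in the 8 P20 libraries by date, with libraries labelled Irx5KO in red and WT in dark blue. On the later date the WT libraries are the higher ones and on the earlier date the Irx5KO libraries are, for the subunit genes and for Mki67.

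Division markers moved with this order. Mki67 was at 18.5 and 14.5 CPM in the later-date Irx5KO libraries and 429 and 228 CPM in the WT ones, and at 1251 and 1418 CPM in the earlier-date Irx5KO libraries and 10.5 and 3.75 CPM in the WT ones. Irx5 had the same order as Mki67, with 29.97 and 18.1 CPM in Irx5KO 1 and 2 beside 108 and 93.5 CPM in WT 1 and 2. The summed TPM of nuclear subunits in the libraries with the higher Mki67 was 4966, 5080, 5660 and 5587, and in the others 3813, 3603, 4125 and 5478. The part of cell division in these differences was not tested. For the mitochondrial sum the values were 5920, 6506, 9443 and 6253 TPM in the former and 6310, 8364, 7031 and 7133 TPM in the latter, in no such order.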

How the data were processed

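The authors quantified single-end reads with kallisto 0.46.2, per the labels' protocols. Deposited per-transcript tables hold an estimated count and a TPM value, per the file headers. The submitters' processing notes name mm10, kallisto and DESeq2, and the annotation is not given in the sources used here. Of 118489 transcripts, 116816 matched GENCODE M21, and the 1673 others held 1.19% to 2.59% of counts. Estimated counts were summed by gene and rounded. Scaling was TMM over 10536 genes with a mean of at least 8 CPM, and genes were kept by filterByExpr. Tests were edgeR 4.0.16 quasi-likelihood fits in R 4.3.3 over all libraries, with Benjamini-Hochberg adjustment over 24592 genes. Age was tested with a coefficient per group and genotype with date as a covariate. DESeq2 1.42.0 and voom (limma 3.58.1) were alternatives. The fits between the ages and between genotypes on the earlier P20 date were run on simulated counts with known changes. The other comparisons, date effects and the sharing of reads with copies were not simulated, and the outcome is not given here.

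Kallisto shares reads among matching transcripts by a model, which bears on mitochondrial genes with nuclear copies. Fragment settings differed: length minus effective length was 99 bases in the 3 later P18 libraries and 96 in the other 11. Same-numbered libraries of the genotypes deviated together at P18 (r = 0.374, 0.175 and 0.275) and not in every pair at P20 (-0.00138, 0.337, 0.0813 and 0.27). Differently numbered pairs ran from -0.404 to 0.0686 at P18 and from -0.329 to 0.294 at P20. Same-numbered libraries also shared a date, except number 2 at P18, so number and date cannot be told apart here. The main fits did not pair libraries by number. Numbers entered only in the alternative with the replicate number as a block, at both ages. Members and lists were chosen with earlier results of these data known. Genes named were the 13 mitochondrial genes, members past the threshold in any comparison, the most abundant and the highest and lowest changed nuclear member of each complex, isoform pairs, and up to 4 genes of other lists. Mitochondrial rRNA and tRNA genes were not analysed here. The values of 1 member that the rule for named genes covers are not reported here, although it is counted in the totals.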

Additional observations from a re-analysis of the deposited data

Results flagged for a closer look

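In the P20 libraries labelled Irx5KO, mt-Co2 as deposited stood at 467.8 CPM in replicate 4, far from the other 3, the nearest of which was at 109.3 CPM and the lowest at 65.61 CPM. It was the only such value among 70 groups of 4 libraries examined. The cutoff flags about 1 group in 20 by chance, so a lone value is no more than chance gives. With its chromosome 1 copy added, the 4 libraries were at 398, 441, 576 and 484 CPM.

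For 5 nuclear subunit genes the difference between the labelled genotypes at P20 was not the same on both dates, by a test of that difference (earlier minus later date, log2, edgeR adjusted p under 0.05). The values were 1.95 for Cox6c (0.90, adjusted p = 0.147, with the counts of its near-identical copies added), 1.773 for Cox5b, 1.747 for Atp5mpl, 1.745 for Atp5g3 and 1.447 for Atp5b. Irx5 and Mki67 had the same order among these libraries, and their part in the differences was not tested.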

How the results depend on the processing

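The mean mitochondrial share stayed 2.84-fold to 3.41-fold higher at P18 over all alternatives (3.01 to 3.30 leaving out 1 library), and the log2 ratio of mitochondrial to nuclear sums differed by -2.40 to -1.82 (-2.23 to -2.06 leaving out 1 library). Between the ages the fit called 16 members (9 to 18 leaving out 1 library). It called 25 with DESeq2, 40 with voom (of all 24592 genes, 2676 and 8681 in place of 1234), 10 without the 3 receptor-rich libraries, without P20 libraries 3 and 4 or without the earlier P18 date, 9 without the later P18 date and 42 without P20 libraries 1 and 2 (8300 of all genes). In Irx5KO the 9 calls (8 to 9) became 0 without the later P18 date, which leaves 1 P18 library assumed to vary like the other groups, and 27 without P20 libraries 1 and 2 (3739 of all genes in place of 386). In WT the 9 calls (4 to 9) became 0 with TMM over all genes kept, 53 with voom (14315 of all genes in place of 48), 2 without the receptor-rich libraries, 3 without the earlier P18 date and 14 without P20 libraries 1 and 2 (2274 of all genes). TMM over all genes moved the median of all genes from -0.34 to -0.21.

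The gap between the mitochondrial and nuclear medians was -2.11 between the ages (-2.18 to -1.95 leaving out 1 library) and -2.41 without the later P18 date. In Irx5KO it was -1.96 (-2.10 to -1.77), with -1.64 without P20 libraries 3 and 4 and -2.40 without the later P18 date. In WT it was -2.28 (-2.57 to -2.10), with -1.86 without the receptor-rich libraries, -1.87 without the earlier and -2.57 without the later P18 date. For age by genotype it was 0.16 (0.0068 to 0.39), with 0.49 without P20 libraries 3 and 4 and -0.14 without 1 and 2. For genotype at P20 it was 0.28 (0.058 to 0.47), with 0.64 and -0.076. On the earlier P20 date it ranged from -0.51 to 0.16 leaving out 1 library, and between the dates from -1.08 to -0.47.

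With no expression filter, 1 member was called for age by genotype, 1 for genotype at P18, 2 on the later P20 date and 8 between the dates. Genotype at P20 gave 4 without P20 libraries 1 and 2, and DESeq2 gave 1 on the later date. Leaving out 1 library within a P20 date leaves a genotype there with a lone library, assumed to vary like the other groups. On the earlier date the 4 calls (0 to 4) became 0 with TMM over all genes or without the later P18 date, 9 with DESeq2 and 8 with voom. Between the dates the 5 calls (0 to 10) became 0 with TMM over all genes, 11 with raw library sizes, 11 with DESeq2 and 8 without the earlier P18 date. With the replicate number as a block, calls were 13 between the ages, with 3 nuclear genes higher in place of 6, 1 on the later P20 date, 2 on the earlier and 8 between the dates, and the block changed the count in no other comparison.

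Direction turned for Atp5l (0.30 with nuclear copies added), Cox7c (-0.36 to 0.0085 leaving out 1 library, positive without P18 Irx5KO 2), Ndufb2 (0.022 without P20 libraries 3 and 4, 0.15 without the earlier P18 date), Uqcr11 (-0.096 without the receptor-rich libraries, -0.077 without the earlier P18 date) and mt-Atp6 (0.73 without the later P18 date), none of which had passed. The cause of these changes was not tested.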
